A study of Mus musculus with 8 samples.

Results

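Il1a, Il1b, Il1rn, Il18 and Nlrp3 were followed in macrophages grown in culture from mouse bone marrow, with and without Padi4. The 5 genes were taken by exact gene symbol from a deposited expression table of 6287 genes, and all 5 were found. The wild-type group (genotype WT) held 4 libraries and the knockout group (genotype PAD4-/-) held 4 libraries of primary macrophages, 8 in all. The product of Padi4, PAD4, changes arginine residues of proteins into citrulline. The labels name no treatment, age, sex or strain, do not spell out the "con" in the sample titles, and do not say how the allele was made or which cells or tissues lack it. The comparison asks how macrophage transcripts differ without PAD4; the series was made for a study of diabetic kidney disease.

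Interleukin 1 alpha (Il1a) and interleukin 1 beta (Il1b) are agonists of the same receptor, and the interleukin 1 receptor antagonist (Il1rn) occupies that receptor without signalling. Il1b and Il18 are made as inactive precursors, and caspase-1 cuts them once it has been activated on an inflammasome. Nlrp3 encodes the sensor of the best-studied inflammasome, and in macrophages the supply of Nlrp3 and Il1b transcripts through NF-kappaB is known as priming.

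In the knockout the antagonist transcript was lower, and the transcripts of the agonist Il1b and of the sensor Nlrp3 were higher. Il1rn fell to 0.517 of its wild-type mean, whereas Nlrp3 rose to 1.57 and Il1b to 1.30 times theirs. Il1a had a ratio of 0.710 and Il18 one of 1.09, and neither passed the test. Thus 2 of the 5 genes were called higher and 1 lower, beside 21.1% and 6.61% of all 5674 genes tested. The test was limma on log2(FPKM + 1), where FPKM is a fragment count corrected for transcript length and for library size, and a call is an adjusted p below 0.05 over all genes tested. All 5 genes passed the filter of a mean of at least 1 FPKM over the 8 libraries.

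The libraries were not alike within the knockout. A principal component analysis put 70.6% of the variance on its leading axis. Wild-type libraries had scores from -9.02 to -8.15 there. Knockout replicate 1 scored -0.91, replicate 2 scored 1.42, replicate 3 scored 17.7 and replicate 4 scored 16.1. Values of the 5 genes and of the called pathway genes named below are therefore also given without knockout replicates 3 and 4, where they passed the filter. Library sums of FPKM over all genes in the table ran from 381573 to 403848, and sequencing depth is unknown. Padi4 itself was not analysed here, which leaves the genotypes as labelled, without a check by the targeted gene. The median tested gene lay 0.082 higher in the knockout on the log2 scale, and scaling moved the balance of calls. On the deposited scale 1195 genes were higher and 375 lower, and 76.1% of the calls were higher. Scaled by the median of ratios, so that the median gene lay near 0, the table had 524 higher and 628 lower, and 45.5% of the calls were higher. In bulk samples such as these, fewer cells of a type and less RNA per cell cannot be told apart.

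Il1rn lies on chromosome 2 (24336860 to 24351491, forward strand, GRCm38.p6). The annotation gives it several transcription starts, and the gene is known for secreted and intracellular forms made from different starts. The deposited values are per gene and do not separate the forms. Because Il1rn, Il1b and Nlrp3 were the genes that passed the test, the 250 bases before their annotated starts are shown, from RefSeq on GRCm38.p6 and 5′ to 3′ on the gene's strand. For Il1rn the most upstream start and the next are given, and for Nlrp3 the 2 starts held in that table. Capitals mark letters that match any of 5 motifs searched on both strands.
Il1rn, chr2:24336610-24336859, forward strand: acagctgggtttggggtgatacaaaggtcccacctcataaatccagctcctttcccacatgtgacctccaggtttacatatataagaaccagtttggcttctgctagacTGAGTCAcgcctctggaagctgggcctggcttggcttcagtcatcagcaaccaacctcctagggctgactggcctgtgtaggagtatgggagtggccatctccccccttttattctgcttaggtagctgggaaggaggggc
Il1rn next start, chr2:24345041-24345290, forward strand: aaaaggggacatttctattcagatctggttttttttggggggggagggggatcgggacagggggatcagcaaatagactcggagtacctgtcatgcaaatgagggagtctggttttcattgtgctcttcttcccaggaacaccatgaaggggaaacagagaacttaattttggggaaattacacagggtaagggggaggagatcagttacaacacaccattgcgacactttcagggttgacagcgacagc
Il1b, chr2:129371140-129371389, reverse strand: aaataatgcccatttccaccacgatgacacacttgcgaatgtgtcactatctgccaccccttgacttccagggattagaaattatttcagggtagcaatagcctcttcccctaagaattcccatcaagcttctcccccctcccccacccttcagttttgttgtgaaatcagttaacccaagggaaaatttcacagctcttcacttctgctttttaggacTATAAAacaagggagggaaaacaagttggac
Nlrp3, chr11:59541319-59541568, forward strand: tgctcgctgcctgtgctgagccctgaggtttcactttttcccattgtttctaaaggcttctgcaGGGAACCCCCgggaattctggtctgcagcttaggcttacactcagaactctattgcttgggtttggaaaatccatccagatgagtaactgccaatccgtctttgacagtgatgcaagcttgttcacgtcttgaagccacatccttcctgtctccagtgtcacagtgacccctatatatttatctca
Nlrp3 next start, chr11:59542436-59542685, forward strand: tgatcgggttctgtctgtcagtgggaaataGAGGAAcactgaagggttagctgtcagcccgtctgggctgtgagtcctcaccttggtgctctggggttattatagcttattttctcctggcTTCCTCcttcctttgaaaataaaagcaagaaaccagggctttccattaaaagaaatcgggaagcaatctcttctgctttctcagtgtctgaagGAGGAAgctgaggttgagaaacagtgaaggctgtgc

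The motifs were a TATA box (TATAAA), an AP-1 site (TGANTCA), a PU.1 core (GAGGAA), a C/EBP site (TTGCNNAA) and the NF-kappaB consensus; no match overlapped another. Of 32851 annotated mouse windows of the same length, 12.4% held the TATA box, 6.75% the AP-1 site, 23.3% the PU.1 core, 9.56% the C/EBP site and 3.90% the NF-kappaB consensus. The upstream Il1rn window held the AP-1 letters TGAGTCA from 141 bases before the start, and the next Il1rn window held no match. Il1b had a TATA box from 31 bases before its start. The upstream Nlrp3 window held the NF-kappaB letters GGGAACCCCC from 186 bases before the start, and the other Nlrp3 window held the PU.1 core 3 times, the nearest from 36 bases before the start. Il1a, whose window is not printed, held a TATA box, an AP-1 match and a PU.1 core, from 32, 12 and 41 bases before its start. A match describes these letters only, and a window without a match says nothing of the factor.

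The antagonist Il1rn was the most abundant of the 5 transcripts in wild type. It measured 41.76, 44.61, 40.38 and 40.08 FPKM in wild-type replicates 1 to 4, and 26.2, 25.67, 16.6 and 17.71 FPKM in knockout replicates 1 to 4. Every knockout library lay below every wild-type library, and the knockout fell into a pair near 26 (replicates 1 and 2) and a pair near 17 (replicates 3 and 4). The group means were 41.7 ± 2.07 FPKM (SD, n = 4) and 21.5 ± 5.09 FPKM (SD, n = 4). The log2 fold change was -0.95 (SE 0.143, limma adjusted p = 0.00420), and 147 of the 5674 tested genes had a smaller p. Without knockout replicates 3 and 4 the log2 fold change was -0.66 (limma adjusted p = 3.00e-05). The knockout libraries kept there lay close together and were chosen after the data were seen. The smaller p is therefore not a stronger result. Groups did not overlap with the knockout lower for 7.12% of all tested genes.

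**Figure D1:**
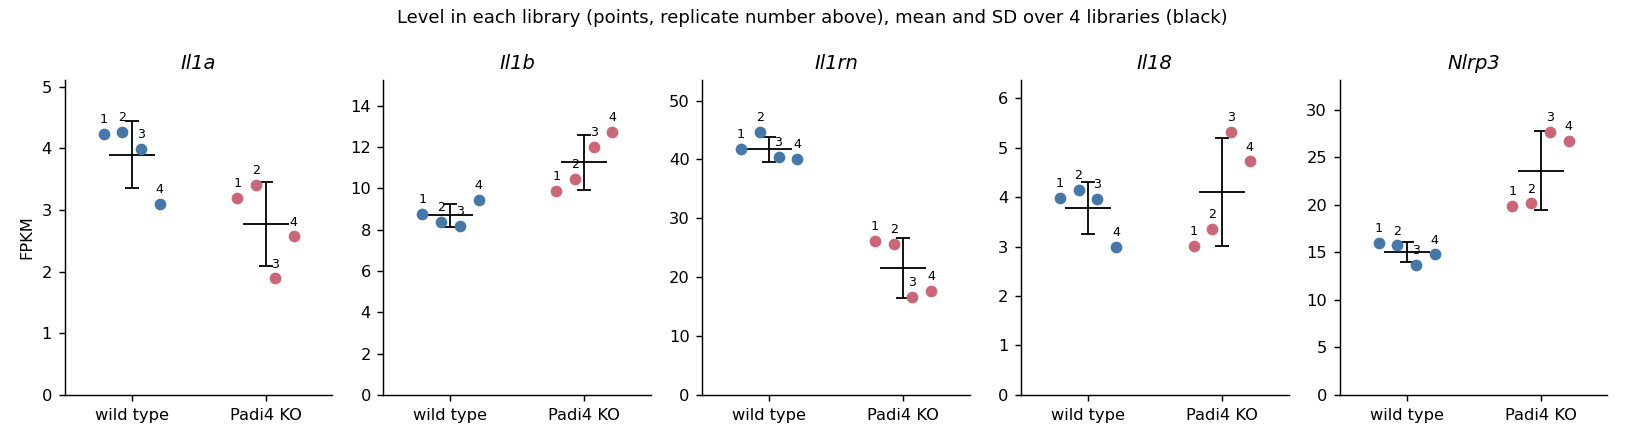
FPKM (vertical axis, from 0) of the 5 genes in each wild-type (blue) and Padi4 knockout (red) library; points are libraries with their replicate number, black bars the mean and SD over 4 libraries. The knockout libraries of Il1rn lie at 16.6 to 26.2 FPKM, all below the lowest wild-type library at 40.08, while Nlrp3 and Il1b lie above wild type and Il1a and Il18 overlap it.

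Nlrp3 (chromosome 11, 59541569 to 59566955, forward strand) rose in the knockout. It measured 15.96, 15.71, 13.7 and 14.77 FPKM in wild-type replicates 1 to 4, and 19.84, 20.13, 27.61 and 26.67 FPKM in knockout replicates 1 to 4. The groups did not overlap, and knockout replicates 3 and 4 again lay farther from wild type than replicates 1 and 2. Groups did not overlap with the knockout higher for 24.0% of all tested genes. The means were 15.0 ± 1.03 FPKM (SD, n = 4) in wild type and 23.6 ± 4.15 FPKM (SD, n = 4) in the knockout. The log2 fold change was 0.60 (SE 0.109, limma adjusted p = 0.00595), and without knockout replicates 3 and 4 it was 0.39 (limma adjusted p = 0.00316). Here too the smaller p comes from libraries kept after the data were seen and is not a stronger result.

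Il1b (chromosome 2, 129364569 to 129371164, reverse strand) rose by less. Its levels were 8.75, 8.39, 8.18 and 9.45 FPKM in wild-type replicates 1 to 4 and 9.87, 10.44, 12.02 and 12.71 FPKM in knockout replicates 1 to 4. The groups did not overlap, but the highest wild-type library, replicate 4, lay close to the lowest knockout library, replicate 1. The means were 8.69 ± 0.557 FPKM (SD, n = 4) and 11.3 ± 1.33 FPKM (SD, n = 4), and the log2 fold change was 0.33 (SE 0.079, limma adjusted p = 0.0145). Without knockout replicates 3 and 4 it was 0.20 and no longer passed (limma adjusted p = 0.0551). An annotated antisense gene, Il1bos, overlaps Il1b; the labels do not say that counting used strand, so reads of the pair cannot be told apart.

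Il1a (chromosome 2, 129299609 to 129310186, reverse strand), the neighbour of Il1b, did not pass the test. It measured 4.23, 4.26, 3.99 and 3.1 FPKM in wild-type replicates 1 to 4 and 3.2, 3.4, 1.89 and 2.57 FPKM in knockout replicates 1 to 4. The groups overlapped, because wild-type replicate 4 lay below knockout replicates 1 and 2. The log2 fold change was -0.39 (SE 0.134, limma adjusted p = 0.0541), with means of 3.90 ± 0.544 and 2.77 ± 0.682 FPKM (SD, n = 4 each). The gene passed the test downwards without wild-type replicate 4, knockout replicate 1 or knockout replicate 2 (limma adjusted p = 0.0425, 0.0346 and 0.0313). Its direction was the same in the 19 alternatives in which it was tested, and it was called in 8 of them, with limma adjusted p from 0.00181 to 0.237. The last of these came without knockout replicates 3 and 4, with a log2 fold change of -0.18. Gm14023, annotated on the other strand, overlaps Il1a.

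Il18 (chromosome 9, 50554700 to 50581841, forward strand) did not pass the test. Its levels were 3.99, 4.15, 3.97 and 2.99 FPKM in wild-type replicates 1 to 4 and 3.01, 3.35, 5.31 and 4.72 FPKM in knockout replicates 1 to 4. Knockout replicates 3 and 4 lay above every wild-type library, and replicates 1 and 2 lay within the wild-type range. The log2 fold change was 0.076 (SE 0.147, limma adjusted p = 0.711), and the sign turned in 4 of 19 alternatives, none of which called it. It was -0.19 without knockout replicates 3 and 4 (limma adjusted p = 0.231). The protein-coding genes Bco2 and Tex12 overlap Il18 on the other strand.

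**Figure D2:**
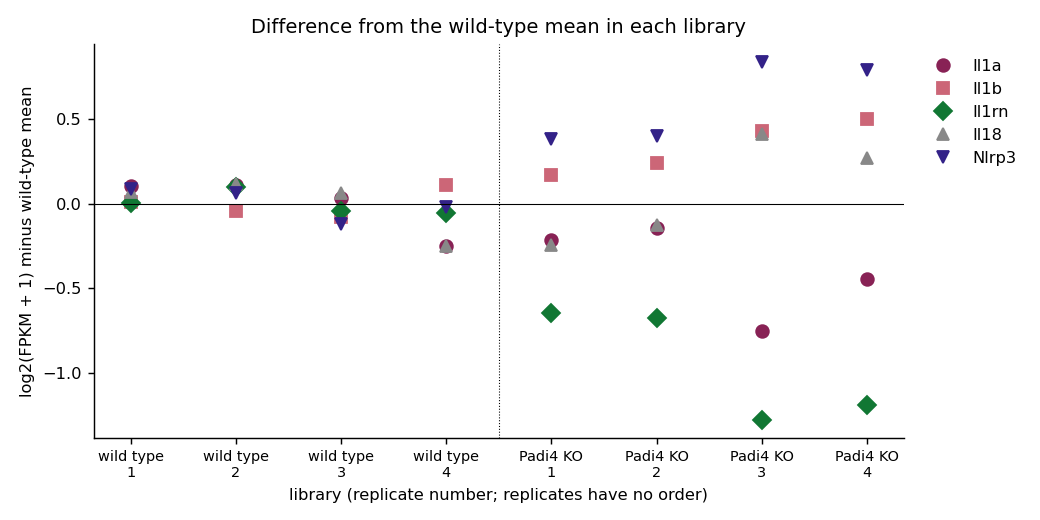
Difference of log2(FPKM + 1) from the wild-type mean (vertical axis) for the 5 genes in each of the 8 libraries (horizontal axis; replicates have no order). Nlrp3 and Il1b lie above 0 and Il1rn and Il1a below 0 in each knockout library, and the points of replicates 3 and 4 lie farther from 0 than those of replicates 1 and 2 for these 4 genes.

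The knockout libraries split alike for 4 of the genes. Measured as differences of log2(FPKM + 1) from the wild-type mean, the values of Il1rn were -0.65, -0.68, -1.28 and -1.19 in knockout replicates 1 to 4. Those of Nlrp3 were 0.38, 0.40, 0.84 and 0.79. In each of the 4 genes, replicates 3 and 4 lay farther out than replicates 1 and 2. Il1b differed by 0.17, 0.24, 0.43 and 0.50 in knockout replicates 1 to 4, and Il1a by -0.21, -0.15, -0.75 and -0.45. Interferon-inducible genes set the same libraries apart. Over 32 interferon genes the median difference was 0.031, 0.027, 1.37 and 1.09 in knockout replicates 1 to 4, and ran from -0.23 to 0.18 among wild-type libraries. Its part in the results for the 5 genes was not tested. Without replicates 3 and 4 the log2 fold change of Il1rn was -0.66 in place of -0.95, that of Nlrp3 0.39 in place of 0.60 and that of Il1b 0.20 in place of 0.33, and Il1b lost its call.

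The order of the levels changed between the groups. In wild type Il1rn (41.7 FPKM) was followed by Nlrp3 (15.0), Il1b (8.69), Il1a (3.90) and Il18 (3.78), and the levels of Il1a and Il18 differed by less than their spread. In the knockout Nlrp3 (23.6 FPKM) and Il1rn (21.5) differed by less than their spread. Within knockout replicates 1 and 2 Il1rn was the higher, and within replicates 3 and 4 Nlrp3 was. Il1b (11.3 FPKM) came next, then Il18 (4.10) and Il1a (2.77).

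The antagonist transcript outnumbered the agonist transcripts in every library, but by less in the knockout. The ratio of Il1rn to Il1b FPKM was 4.77, 5.32, 4.94 and 4.24 in wild-type replicates 1 to 4 and 2.65, 2.46, 1.38 and 1.39 in knockout replicates 1 to 4. The mean ratio was 4.82 ± 0.446 (SD, n = 4) in wild type and 1.97 ± 0.680 (SD, n = 4) in the knockout, or 2.56 without knockout replicates 3 and 4. The ratio of Il1rn to Il1a was 9.87, 10.5, 10.1 and 12.9 in wild type and 8.19, 7.55, 8.78 and 6.89 in the knockout, and here replicates 3 and 4 did not stand apart. The ratio of Il1b to Il1a, the 2 agonists, was 2.07, 1.97, 2.05 and 3.05 in wild type and 3.08, 3.07, 6.36 and 4.95 in the knockout. Knockout replicates 1 and 2 were level with wild-type replicate 4, and replicates 3 and 4 lay well above. The means were 2.28 ± 0.511 and 4.37 ± 1.59 (SD, n = 4 each). Such ratios are a description and were not tested, and they compare transcripts, not proteins.

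**Figure D3:**
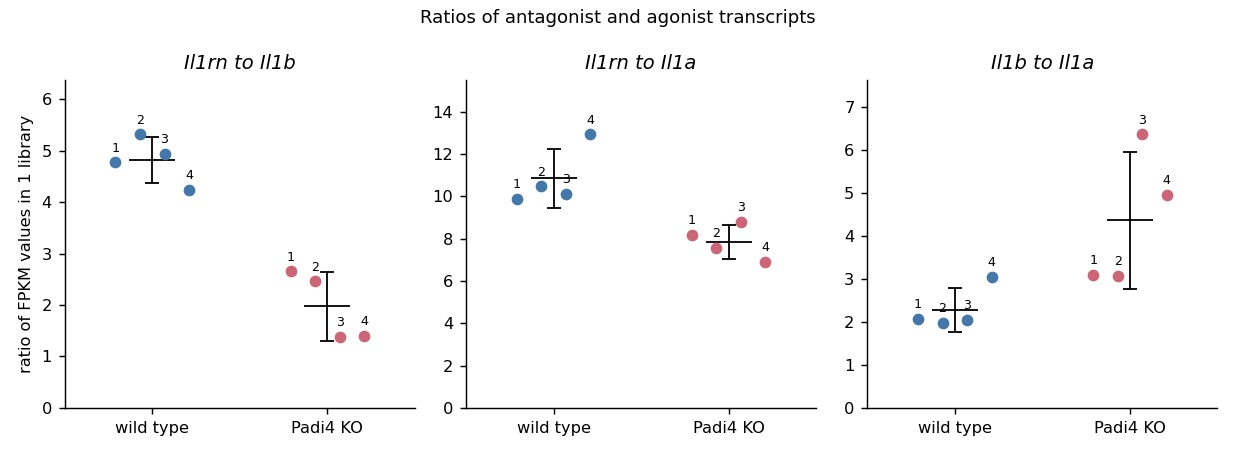
Ratio of FPKM values within a library (vertical axes, from 0) for Il1rn to Il1b, Il1rn to Il1a and Il1b to Il1a; points are wild-type (blue) and Padi4 knockout (red) libraries with their replicate number, black bars the mean and SD over 4 libraries. Il1rn to Il1b lies between 4.24 and 5.32 in wild type and between 1.38 and 2.65 in the knockout.

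In the authors' deposited table the picture differed for the agonists. There Il1a had a log2 fold change of -0.57 with q = 0.0327, and Il1b one of 0.30 with q = 0.0925. For Il1rn the authors' deposited table gave -1.04 (q = 3.74e-12), for Nlrp3 0.56 (q = 7.48e-06) and for Il18 0.066 (q = 0.953). Directions were the same as here for all 5 genes, while at 0.05 the authors' deposited table passes Il1a and not Il1b. The median log2 fold change of the genes tested here was 0.012 in the authors' deposited table and 0.082 here.

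By position, Il1a and Il1b are neighbours on the reverse strand of chromosome 2 with 54.4 kb between them, and Il1rn lies 105 Mb away on the same chromosome. Of the other listed genes within 250 kb of Il1a, Slc20a1 and Polr1b did not pass the test (limma adjusted p = 0.139 and 0.378) and Ckap2l was below the filter. Near Il1rn, the gene Il1f9, which encodes interleukin 36 gamma, another ligand of the interleukin 1 family, fell from 2.81 ± 0.301 to 2.12 ± 0.331 FPKM (SD, n = 4 each; log2 fold change -0.29, limma adjusted p = 0.0372). Its libraries read 2.81, 3.15, 2.87 and 2.42 FPKM in wild type and 2.12, 2.52, 1.71 and 2.13 FPKM in the knockout, so the groups overlapped. The call was lost in 6 of 19 alternatives, which left out wild-type replicate 1, 2 or 3, knockout replicate 3 or 4, or both these knockout replicates (log2 fold change -0.20, limma adjusted p = 0.153). The neighbour Psd4, picked after its values were seen, fell too (12.9 to 10.2 FPKM, log2 fold change -0.31, limma adjusted p = 0.00655). Il1f9 was the only other ligand gene of the family analysed here.

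The rest of the pathway was read from 7 gene lists. Of 53 tested genes, 14 rose and 5 fell, which is 35.8% beside 27.7% of all tested genes, and their median log2 fold change was 0.15 beside 0.082. The 14 include Zfp36l1 (0.54 FPKM in wild type, 2.59 in the knockout), which passed the filter only through the knockout, so its call carries no weight. It is also in each higher count of this paragraph except that without knockout replicates 3 and 4, where it was below the filter. There were 6 higher and 6 lower under median-of-ratios scaling, or 22.6% beside 20.3% of all genes. Without knockout replicates 3 and 4 there were 5 and 1 of 52, or 11.5% beside 16.9%, so that the pathway share lay below that of all genes. The counts moved with single libraries, and the order of the shares turned with them. There were 5 higher and 1 lower without wild-type replicate 1 (11.3% beside 16.1%), 5 and 0 without replicate 2 (9.43% beside 15.5%), 5 and 2 without replicate 3 (13.2% beside 15.8%) and 10 and 3 without replicate 4 (24.5% beside 21.1%). There were 26 and 6 without knockout replicate 1 (60.4% beside 39.2%), 6 and 1 without replicate 3 (13.2% beside 16.6%) and 5 and 1 without replicate 4 (11.3% beside 17.6%).

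Receptor components did not pass the test. Il1rap, the accessory chain shared by receptors of the family, measured 1.52 FPKM in wild type and 1.44 in the knockout (limma adjusted p = 0.772). Il18bp, a secreted protein that binds and blocks interleukin 18, measured 16.2 and 15.6 FPKM (limma adjusted p = 0.648). Il1rl2, the receptor for interleukin 36, was below the filter, at 0.083 and 0.075 FPKM. Il1r1, Il1r2 and the other receptor genes of the list were not analysed here.

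Downstream of the receptor, 3 of 13 tested signalling genes rose and no gene fell, 23.1% beside 27.7% of all genes called either way, and the median log2 fold change was 0.092 beside 0.082 for all genes. The list thus lay near the background. Peli2, a Pellino ubiquitin ligase, rose from 1.73 ± 0.230 to 2.63 ± 0.132 FPKM (SD, n = 4 each; limma adjusted p = 0.00493). Its knockout libraries lay close together, at 2.5, 2.69, 2.55 and 2.79 FPKM. The kinase gene Map3k3 rose from 38.4 ± 1.27 to 46.3 ± 3.30 FPKM (SD, n = 4 each; limma adjusted p = 0.00941). Without knockout replicates 3 and 4 Peli2 and Map3k3 had log2 fold changes of 0.40 and 0.19 (limma adjusted p = 0.0139 and 0.0273). Myd88, the adaptor that receptors of the family share with Toll-like receptors, rose from 44.8 ± 1.28 to 54.5 ± 6.31 FPKM (SD, n = 4 each; limma adjusted p = 0.0238). The call of Myd88 was lost without wild-type replicate 1, 2 or 3 or knockout replicate 3 or 4, with median-of-ratios scaling (limma adjusted p = 0.0698), and without knockout replicates 3 and 4 (log2 fold change 0.14, limma adjusted p = 0.0843). Irak2 (28.5 and 34.3 FPKM) and Traf6 (11.2 and 10.7 FPKM), a kinase and a ubiquitin ligase of the same cascade, did not pass. Without knockout replicate 1 the list had 5 higher and 1 lower, or 46.2% beside 39.2% of all genes.

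Of 10 tested inflammasome sensors, adaptors and their upstream channels, 1 rose and 1 fell, beside 27.7% of all genes called either way. The list's share lay above that of all genes with a pseudocount of 0.1, a filter at 5 FPKM, library weights or a replicate block. The same held without robust empirical Bayes and without knockout replicate 1 or 2. The share lay below in the main test and the other alternatives, so these few genes set the list neither above nor below the background. Panx1, a membrane channel that releases ATP, rose from 131 ± 2.84 to 151 ± 11.1 FPKM (SD, n = 4 each; limma adjusted p = 0.0238). Naip2, which senses bacterial secretion proteins for another inflammasome, fell from 32.2 ± 0.939 to 28.1 ± 2.66 FPKM (SD, n = 4 each; limma adjusted p = 0.0449). Naip2 belongs to a family of similar genes, and no source used here says how shared reads were divided. Leaving out wild-type replicate 1, 2 or 3, or knockout replicate 3 or 4, ended both calls, and leaving out wild-type replicate 4 ended that of Naip2. The list had 5 higher and 1 lower without knockout replicate 1, or 60.0% beside 39.2% of all genes. Median-of-ratios scaling and quantile normalization ended the call of Panx1 (limma adjusted p = 0.124 and 0.0620). TPM-like scaling and no mean-variance trend ended that of Naip2 (limma adjusted p = 0.0863 and 0.0531). Without knockout replicates 3 and 4 Panx1 had a log2 fold change of 0.12 (limma adjusted p = 0.0974) and Naip2 one of -0.082 (limma adjusted p = 0.253). Pycard, the adaptor that links Nlrp3 to caspase-1, measured 2.56 and 3.11 FPKM and did not pass (limma adjusted p = 0.272), nor did Aim2, a sensor of cytosolic DNA (15.4 and 15.1 FPKM, limma adjusted p = 0.832). Txnip, a thioredoxin-binding protein, measured 38.8 and 50.3 FPKM (limma adjusted p = 0.0542).

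Among 5 tested effectors, 2 fell and no gene rose, beside 6.61% of all genes called lower; no effector was called without wild-type replicate 1 or 2, knockout replicate 3 or 4, or both these knockout replicates. Casp1, which encodes the protease that cuts Il1b and Il18 precursors, measured 134 FPKM in wild type and 133 in the knockout (log2 fold change -0.016, SE 0.082, limma adjusted p = 0.892). Casp4, known in mouse as caspase-11, a sensor of cytosolic lipopolysaccharide, measured 74.8 and 75.2 FPKM (limma adjusted p = 0.994). Gsdmd, whose product forms the pore through which interleukin 1 beta leaves, measured 11.8 and 14.9 FPKM (limma adjusted p = 0.168). Capn2, the catalytic chain of a calpain, a family of proteases that cut the Il1a precursor, fell from 78.7 ± 3.10 to 66.9 ± 6.40 FPKM (SD, n = 4 each; limma adjusted p = 0.0274). Serpinb9, a protease inhibitor, fell from 20.2 ± 1.08 to 17.5 ± 1.51 FPKM (SD, n = 4 each; limma adjusted p = 0.0481). The call of Capn2 was lost without wild-type replicate 1, 2 or 4 or knockout replicate 3 or 4, and that of Serpinb9 without wild-type replicate 1, 2 or 3 or knockout replicate 3 or 4. Serpinb9 also lost its call with no filter or TPM-like scaling (limma adjusted p = 0.0525 and 0.0859). The same held with no mean-variance trend or without robust empirical Bayes (limma adjusted p = 0.0537 and 0.0503). Without knockout replicates 3 and 4 the log2 fold change of Capn2 was -0.12 (limma adjusted p = 0.119) and that of Serpinb9 -0.096 (limma adjusted p = 0.275).

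**Figure D4:**
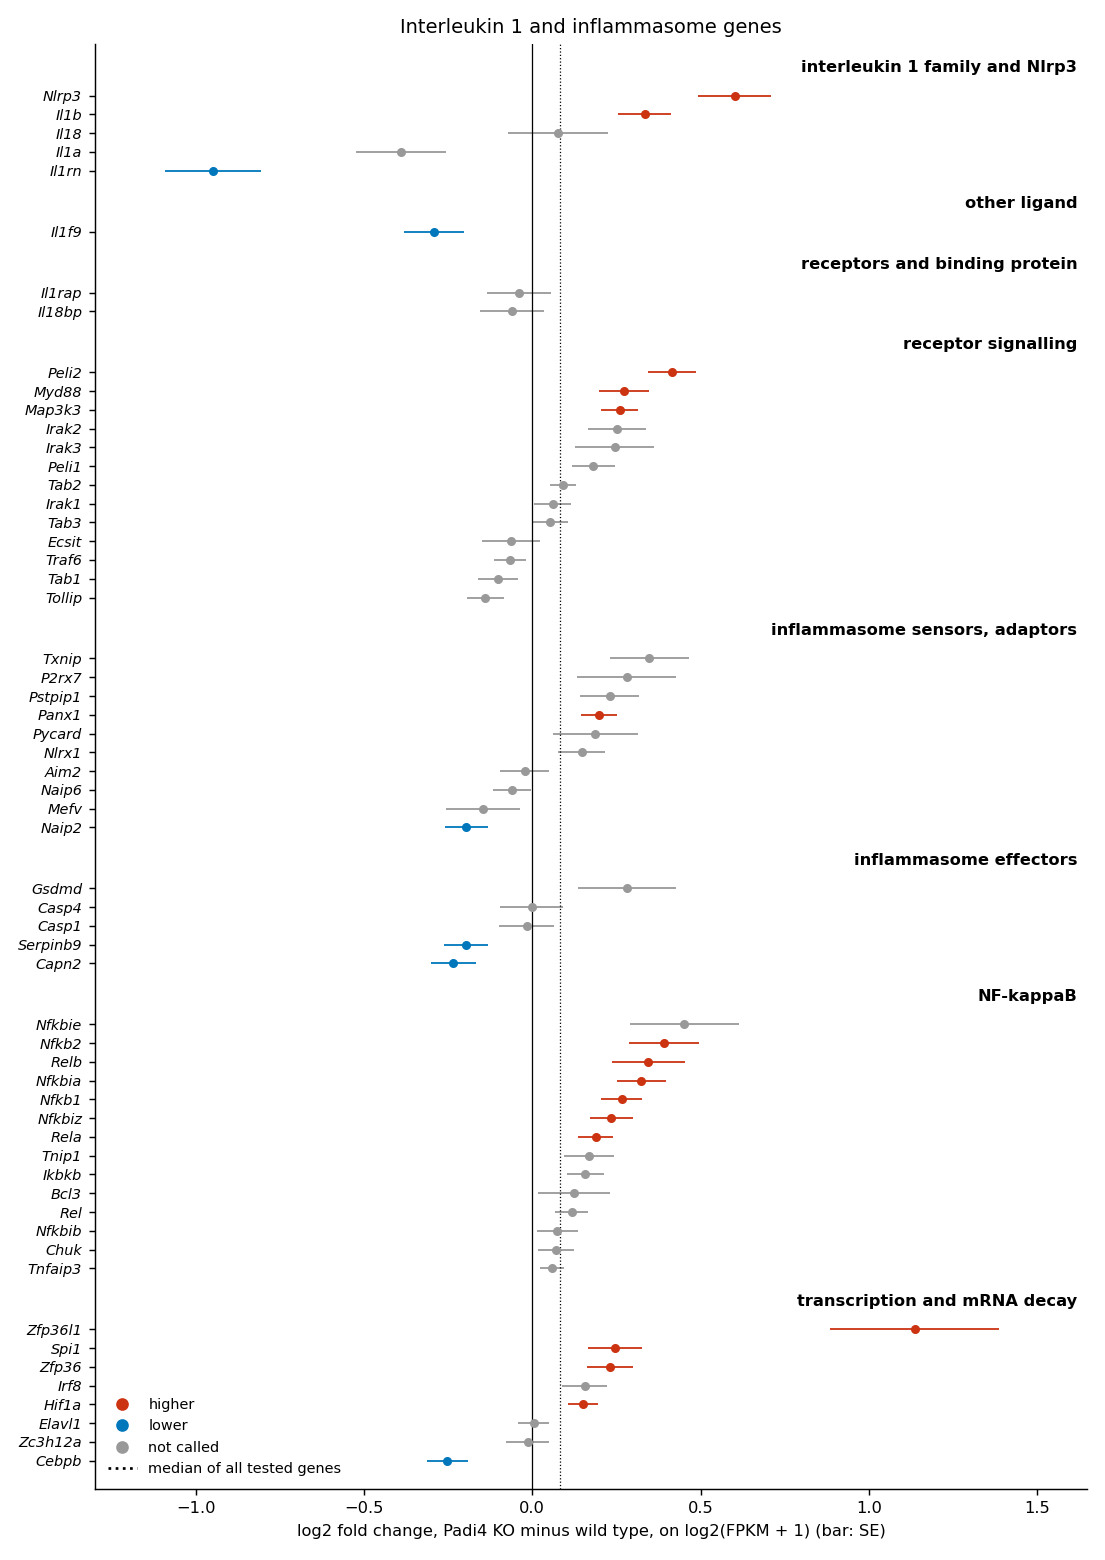
Log2 fold change, Padi4 knockout minus wild type, on log2(FPKM + 1) (horizontal axis; bars, SE) for the 5 genes and the 53 tested genes of the pathway lists, grouped by role; red was called higher, blue lower, grey not called, and the dotted line is the median of all tested genes. Il1rn lies lowest at -0.95, the caspase genes lie near 0, and the 14 NF-kappaB genes lie above 0 (11 of them with median-of-ratios scaling).

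Of 14 tested NF-kappaB genes, 6 rose and no gene fell, beside 21.1% of all genes called higher, and the median log2 fold change was 0.18 beside 0.082. All 14 had a log2 fold change above 0, as did 70.6% of all genes. With median-of-ratios scaling 11 of 14 lay above 0, beside 51.2% of all genes, and 13 did with quantile normalization or without knockout replicates 3 and 4. Nfkbia, which encodes the inhibitor that holds NF-kappaB in the cytoplasm and is itself a target of the factor, rose from 145 ± 4.17 to 182 ± 20.6 FPKM (SD, n = 4 each; limma adjusted p = 0.0120). Nfkb1 rose from 47.3 ± 0.908 to 57.2 ± 5.15 FPKM (limma adjusted p = 0.0131) and Nfkb2 from 54.9 ± 1.44 to 73.0 ± 12.4 FPKM (limma adjusted p = 0.0233; SD, n = 4 each). Both encode DNA-binding subunits. Nfkbia and Nfkb1 were called in each of 20 alternatives. Without knockout replicates 3 and 4 their log2 fold changes were 0.19 and 0.16 (limma adjusted p = 0.0173 and 0.0382). The call of Nfkb2 was lost without any 1 wild-type replicate, without knockout replicate 4, and without knockout replicates 3 and 4 (log2 fold change 0.19, limma adjusted p = 0.0563). The list's count of higher genes moved, and so did the share of all genes called higher. The count was 3 with median-of-ratios scaling (9.24% of all genes) and 10 without knockout replicate 1 (29.6%). The count was 2 without wild-type replicate 1, 2 or 3 (11.6%, 11.4% and 11.5%) or knockout replicate 4 (12.9%). There were 3 without knockout replicate 3 (11.9%) and 2 without knockout replicates 3 and 4 (11.7%).

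Of 8 tested transcription factors and RNA-binding proteins linked to Il1b expression, 4 were called higher and 1 lower, beside 21.1% and 6.61% of all genes. Zfp36l1, a protein that promotes decay of mRNAs with AU-rich elements, measured 0.54 ± 0.058 FPKM in wild type and 2.59 ± 1.41 FPKM in the knockout (SD, n = 4 each; log2 fold change 1.14, limma adjusted p = 0.0142). It passed the filter of 1 FPKM only through the knockout, so its call carries no weight in the count, which was 3 higher and 1 lower among the other 7. Its log2 fold change was 0.44 with a pseudocount of 5 and 1.92 with one of 0.1, and without knockout replicates 3 and 4 it was below the filter. Its knockout libraries read 1.33, 1.41, 3.79 and 3.84 FPKM and thus split as the 4 genes above did. Its relative Zfp36 rose from 48.7 ± 3.44 to 57.4 ± 4.91 FPKM (SD, n = 4 each; limma adjusted p = 0.0341), a call lost without wild-type replicate 1, 2 or 3 or knockout replicate 2, 3 or 4. Median-of-ratios scaling and quantile normalization ended it too (limma adjusted p = 0.133 and 0.113), as did leaving out knockout replicates 3 and 4 (log2 fold change 0.15, limma adjusted p = 0.144). Cebpb, a transcription factor that binds the Il1b gene, fell from 138 ± 7.24 to 116 ± 8.53 FPKM (SD, n = 4 each; limma adjusted p = 0.0151), a call lost without wild-type replicate 2 (limma adjusted p = 0.0512) and without knockout replicates 3 and 4 (log2 fold change -0.17, limma adjusted p = 0.0516). The list's higher count was 1 without wild-type replicate 1, 2 or 3 (11.6%, 11.4% and 11.5% of all genes) or knockout replicate 3 or 4 (11.9% and 12.9%). It was 2 without wild-type replicate 4 (15.9%) and 1 with median-of-ratios scaling (9.24%). These counts include Zfp36l1, which was the gene called wherever the count was 1.

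The genes whose pattern over the 8 libraries was most like that of Il1rn were Mtus1, the chemokine receptor gene Ccr1 and the macrophage elastase gene Mmp12, with Pearson r of 0.999, 0.996 and 0.993 on log2(FPKM + 1). Those most like Nlrp3 were Gpr84, Jpt2 and Il21r (r of 0.996, 0.995 and 0.995), and those most like Il1b were Junb, Panx1 and Lrrc14 (r of 0.994, 0.989 and 0.987). All these points share the 8 libraries and their 3 levels (wild type, knockout replicates 1 and 2, knockout replicates 3 and 4), so high values are common. Of 5581 genes compared, 264 reached an r of 0.95 with Nlrp3, 161 with Il1b and 127 with Il1rn. Il1a and Il18 had fewer, at 7 and 4. The genes most like Il1a were Rnf217, Heatr3 and Psmd11 (r of 0.990, 0.976 and 0.975), and those most like Il18 were Extl2, Gbp3 and Zfp595 (r of 0.971, 0.963 and 0.962). Likeness was chosen as the highest r and is a description.

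The labelled cell type was checked against markers. Of 12 macrophage markers, 7 were analysed here, among them Adgre1, Csf1r, Cd14 and Lyz2, and their FPKM summed to between 17548 and 18124 in wild type and between 19109 and 24943 in the knockout. Most of each sum was Lyz2, with means of 16587 FPKM in wild type and 20250 FPKM in the knockout. Of these 7 markers, 5 passed the test upwards, beside 21.1% of all genes. There were 2 with median-of-ratios scaling (9.24% of all genes) and 3 without knockout replicates 3 and 4 (11.7% of all genes). Leaving out any 1 of the wild-type replicates or of knockout replicates 3 and 4 gave 3 (11.4% to 15.9% of all genes). All 7 had a log2 fold change above 0 in each of these settings. So did 70.6% of all genes in the main test, and 51.2% to 71.0% over these settings. This is the direction of Nlrp3 and Il1b and not that of Il1rn, and the part of the markers in these results was not tested. Of 14 neutrophil markers, Lcn2 alone was analysed here, at 0.52 to 1.13 FPKM in wild type and 0.31 to 0.52 FPKM in the knockout. The 3 dendritic cell markers analysed here summed to at most 1.02 FPKM, and the 2 fibroblast markers to at most 0.84 FPKM, in any library. Lymphocyte, mast cell and erythroid markers were not analysed here.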

How the data were processed

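The series holds 8 libraries of bone marrow derived macrophages, 4 per genotype, grouped by sample title. Trizol was used for total RNA and a BGISEQ protocol for the libraries, per the labels' protocols. Per the submitters' processing notes, HISAT, Bowtie2 and RSEM were the authors' tools and GRCm38 their build; of versions and settings these notes say nothing. What the authors deposited is FPKM by gene, with 2 decimals. Their log2 fold changes and q-values were deposited in the same table, from a test that no source used here names. RSEM estimates leave no whole reads to recover, so depth is unknown, count tests were not run and no counting interval is given.

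Here limma 3.58.1 in R 4.3.3 was run on log2(FPKM + 1) of all genes with a mean of at least 1 FPKM, with a mean-variance trend, robust empirical Bayes, two-sided tests and Benjamini-Hochberg adjustment over 5674 genes; 613 were left out. Fold changes on this scale understate those of low genes, so ratios of mean FPKM are also given. The series' design text calls samples independent, but no label names the animal or culture, so p-values cover the spread among the libraries alone, which may be partly technical. The procedure was tested on simulated data, in which genes varied independently and with the same spread in both groups. That test says nothing of the split within the knockout. Gene IDs were matched to RefSeq GRCm38.p6 (6209 of 6287, all 5 genes of interest among them); strand, transcripts and overlaps came from GENCODE M21 on GRCm38. The table lists Il36g under the symbol Il1f9.

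The 5 genes and all gene lists were chosen with earlier results of these data known. Named genes are the 5, up to 3 called genes per pathway list with the smallest adjusted p, and the 3 genes most like each of the 5, leaving out predicted and clone names; other pathway genes were added for their role after their values were seen. Alternatives changed the pseudocount, the filter, the scaling, the trend or robustness of the variance model, and the weights of libraries, added a replicate block, or left out each library; leaving out knockout replicates 3 and 4 was added after the data were seen.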

Additional observations from a re-analysis of the deposited data

Results flagged for a closer look

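Il18 measured 2.99 FPKM in wild-type replicate 4, below the other 3 wild-type libraries at 3.97 to 4.15 FPKM, and the gap to the nearest was 0.845 of the group's range. Chance sets about 1 group in 20 apart in this way, and it was the only 1 of 42 groups of 4 libraries examined. Without this library the log2 fold change of Il18 was -0.0077 (limma adjusted p = 0.973). Il1a was also lowest in that wild-type library, at 3.1 FPKM. The ratio of Il1b to Il1a was not among the groups examined. In wild type it was highest in the same library, at 3.05, beside 1.97 to 2.07 in the others.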

How the results depend on the processing

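The calls of Il1rn and Nlrp3 held in each of 20 alternatives, with limma adjusted p up to 0.0175 and 0.0269. The fit without knockout replicates 3 and 4, chosen after the data were seen, is among the 20. Il1b kept its direction in 20 and its call in 19, where limma adjusted p reached 0.0498 (quantile normalization), close to the threshold. Without knockout replicates 3 and 4 its log2 fold change was 0.20. There 1 of the 5 genes was called higher, beside 11.7% of all genes. Il1a, not called in the main test, passed with a pseudocount of 5 (log2 fold change -0.20), median-of-ratios scaling (-0.46), quantile normalization (-0.50) and library weights (-0.55). Each time 2 of the 5 genes were called lower, beside 6.63%, 11.1%, 9.18% and 13.1% of all genes. With each library left out in turn the log2 fold change of Il1a ran from -0.47 to -0.27. In these fits 1 to 2 of the 5 genes were called lower, beside 4.14% to 9.59% of all genes. The cause of these changes was not tested. A gene not called that changed sign uncalled, as Il18 did, was counted as unmoved.

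Pathway genes called lower were 3 with TPM-like scaling and 3 with no mean-variance trend, beside 5.45% and 6.38% of all genes. Those called higher were 6 with median-of-ratios scaling, 7 with quantile normalization and 26 with library weights, beside 9.24%, 8.60% and 39.3% of all genes. Leaving out knockout replicates 3 and 4 gave 5 higher and 1 lower, beside 11.7% and 5.16%. With each library left out, 5 to 26 were higher and 0 to 6 lower, beside 11.4% to 29.6% and 4.14% to 9.59% of all genes. These higher counts include Zfp36l1 wherever it passed the filter, and its call carries no weight. Over all tested genes, 524 were higher and 628 lower with median-of-ratios scaling, 488 higher with quantile normalization, 2229 higher and 746 lower with library weights, and 662 higher without knockout replicates 3 and 4. With each library left out, 647 to 1682 were higher and 235 to 544 lower.

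Same-numbered libraries did not deviate together (r of -0.032, -0.14, -0.060 and -0.060 for replicates 1 to 4). With 4 libraries per group this cannot exclude pairing, and no label says whether the numbers pair libraries. With a replicate block Il1a passed (log2 fold change -0.39, limma adjusted p = 0.0384) and 2 of the 5 genes were called lower. The block called 1031 genes higher and 334 lower, the latter 5.89% of all genes. Since depth is unknown, what it limits could not be worked out.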
